A study of Mus musculus with 6 samples.

Results

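The genes described here are 8 mouse genes of amyloid processing and Alzheimer disease risk, chosen by name: App, Psen2, Sorl1, Bin1, Picalm, Cd2ap, Abi3 and Grn. The choice of these genes, and of the lists of related genes below, was made with earlier results of these data known. All 8 were among the 41079 genes listed, and all 8 passed the filter on low counts that left 14618 genes for testing. They were read in RNA sequencing of primary microglia, the macrophages of the brain, that were grown under optimized or control conditions (3 libraries each). The comparison asks how cues from the brain environment, returned to the dish, moved these genes.

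Amyloid-β is released from the amyloid precursor protein when β-secretase and then γ-secretase cut it, whereas a cut by α-secretase falls within the amyloid-β stretch and prevents its release. Which cut is made depends in large part on where the precursor travels, so that endocytic adaptors and sorting receptors belong to the same biology as the proteases. Microglia take up and degrade amyloid in endosomes and lysosomes, and many genes near which human risk variants lie are active in these cells.

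Every culture came from C57Bl/6N pups aged 1-3 days, and flasks pooled several neonatal brains. Microglia were shaken off mixed glial flasks that had been grown for weeks in serum-containing medium and were harvested on several days. The flasks had been fed with medium conditioned by L-929 cells (a fibroblast line that secretes the growth factor M-CSF). The study's methods do not give the harvest day behind each library. After plating, all of the cells met serum again briefly while they attached. Control cells were then kept in serum-free DMEM/F12. Optimized cells had TGFbeta, IL34 and CX3CL1 at 100 ng/mL each by their labels. The study's methods add cholesterol, insulin-transferrin-selenium and a collagen IV coating. The effects of the single components cannot be told apart. The study describes the replicates as biological, and the labels do not say which flasks or litters each came from.

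The libraries held between 20628148 and 27261839 counts, and the 10 most abundant genes took 14.3 to 17.2% of the counts in control and 19.0 to 24.1% in optimized libraries. Among the 8 microglia markers, 5 were higher and 2 lower under optimized conditions, and their summed level was 7977 to 8606 CPM (TMM-scaled counts relative to library size) in control and 12441 to 15940 CPM in optimized libraries. Marker sums of other cells were low beside that of microglia, but the oligodendrocyte sum was above the levels of Psen2, Cd2ap and Sorl1 given below. Neuronal markers summed to 5.13 to 6.08 CPM in control and 6.96 to 8.13 CPM in optimized libraries (1 of 5 tested was higher, Nefl, and Syt1 and Snap25 were at or near 0). Astrocyte markers summed to 27.1 to 30.0 and 18.3 to 20.8 CPM (1 of 5 was lower, Aldh1l1), oligodendrocyte markers to 135 to 151 and 164 to 202 CPM (1 of 6 was higher, Mbp), and fibroblast markers to 21.3 to 27.8 and 22.0 to 78.7 CPM (0 of 5 passed). The part of these cells in the results below was not tested.

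Of the 8 genes, 5 were higher under optimized conditions (Abi3, Bin1, Grn, Picalm and App), 1 was lower (Sorl1) and 2 did not pass the test (Psen2 and Cd2ap). Calls came from the quasi-likelihood test of edgeR, Benjamini-Hochberg adjusted across every gene tested, in which 14.7% of genes were higher and 15.2% lower at an adjusted p under 0.05. For each of the 5 higher genes all optimized libraries lay above all control libraries, a pattern shown by 21.4% of genes tested, and for Sorl1 they lay below, as for 22.5% of genes. The median log2 fold change of the 8 genes was 0.55, against 0.01 over all genes tested. Because the 8 were chosen with earlier results known, these shares and medians are descriptions only. Fewer cells of a type and less RNA per cell cannot be told apart in such bulk libraries. The share of higher genes among all calls depended on the scaling, at 49.1% with TMM factors and 32.3% with library size alone, but each of the 8 genes kept its call under all 15 alternatives, including library size alone.

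**Figure D1:**
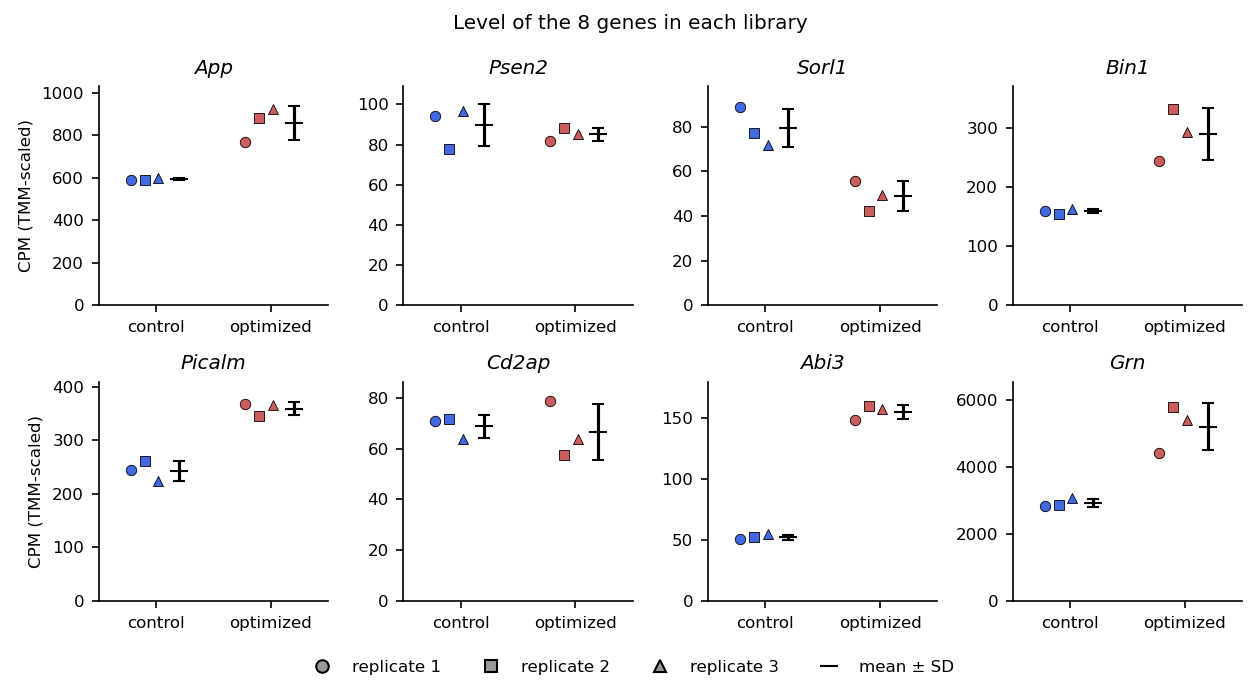
Level of each gene in every library, as TMM-scaled CPM (vertical axes, starting at 0), with control libraries in blue, optimized libraries in red, 1 symbol shape per replicate number, and black bars for the mean ± SD of 3 libraries. App, Bin1, Picalm, Abi3 and Grn are higher in every optimized library, Sorl1 is lower in every one, and the groups overlap for Psen2 and Cd2ap.

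**Figure D2:**
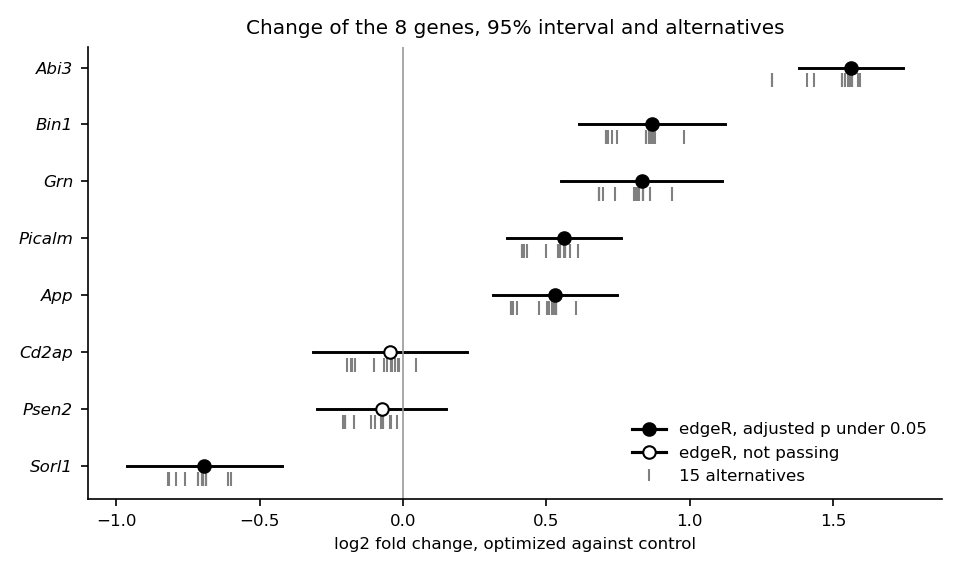
Log2 fold change of each gene, optimized against control (horizontal axis), with its 95% confidence interval as a black line, filled circles for an adjusted p under 0.05 in edgeR, and grey ticks for the 15 alternatives. Abi3 stands highest at 1.56 and Sorl1 lowest at -0.69, and the ticks of no gene that passed reach 0.

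The promoters of 3 genes that rose and of the gene that fell are shown so that they can be read side by side. Each runs from 250 bases before to 50 bases after the most upstream RefSeq transcription start, 5′ to 3′ on the gene's strand. RefSeq gave such a promoter for 6 of the 8 genes, and each was placed on GRCm39 by an exact match, with App at chr16:84970546-84970845 (minus strand), Picalm at chr7:89779171-89779470 (plus), Grn at chr11:102321083-102321382 (plus) and Sorl1 at chr9:42035544-42035843 (minus). Capitals mark the motif matches.
App: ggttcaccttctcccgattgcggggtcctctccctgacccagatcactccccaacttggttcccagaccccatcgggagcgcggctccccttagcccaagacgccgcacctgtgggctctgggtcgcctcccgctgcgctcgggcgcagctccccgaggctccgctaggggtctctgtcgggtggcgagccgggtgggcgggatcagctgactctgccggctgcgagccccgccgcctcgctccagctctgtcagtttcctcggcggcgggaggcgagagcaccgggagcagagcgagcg
Picalm: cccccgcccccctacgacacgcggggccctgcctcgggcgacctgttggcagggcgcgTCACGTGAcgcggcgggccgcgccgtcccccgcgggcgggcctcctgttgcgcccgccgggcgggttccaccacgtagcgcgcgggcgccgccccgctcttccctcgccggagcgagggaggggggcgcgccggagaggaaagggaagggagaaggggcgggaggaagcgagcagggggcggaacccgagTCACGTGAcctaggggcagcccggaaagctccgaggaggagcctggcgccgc
Grn: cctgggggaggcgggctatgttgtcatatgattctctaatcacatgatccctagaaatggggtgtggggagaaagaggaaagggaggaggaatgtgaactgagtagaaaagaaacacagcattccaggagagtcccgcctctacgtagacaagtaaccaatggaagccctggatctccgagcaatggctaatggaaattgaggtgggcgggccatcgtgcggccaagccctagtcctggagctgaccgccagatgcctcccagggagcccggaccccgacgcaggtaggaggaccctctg
Sorl1: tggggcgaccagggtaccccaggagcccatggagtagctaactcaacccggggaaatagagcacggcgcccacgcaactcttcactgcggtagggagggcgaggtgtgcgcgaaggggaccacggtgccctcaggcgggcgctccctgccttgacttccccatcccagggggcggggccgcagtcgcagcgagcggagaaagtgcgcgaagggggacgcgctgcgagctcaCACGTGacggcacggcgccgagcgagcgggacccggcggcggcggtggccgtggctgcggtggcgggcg

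On both strands 6 motifs were searched, and the shares of 24929 RefSeq promoters of the same length that hold each are given as a background. They were the E-box core CACGTG (7.47% of promoters), the CLEAR-type E-box TCACGTGA bound by the lysosomal regulator TFEB (1.06%), a PU.1 site GAGGAAGT (3.34%), the SMAD palindrome GTCTAGAC (0.213%), the AP-1 site TGANTCA (7.69%) and a sterol regulatory element TCACNCCAC (1.26%). Each CLEAR-type match also contains the E-box core. Picalm held 2 CLEAR-type matches, from -192 to -185 and from -2 to 6 relative to the start. Sorl1 held 1 E-box core, from -19 to -14. The windows of App, Grn, Psen2 and Cd2ap held none of the 6. RefSeq gave 2 starts each for Psen2 and Sorl1, and only the window at the most upstream one was searched. A match is a description of letters and was not tested as a binding site.

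App encodes the amyloid precursor protein (ENSMUSG00000022892, chr16:84746573-84971126 on GRCm39, minus strand). Its level was 592, 590 and 602 CPM in control replicates 1 to 3 and 770, 881 and 925 CPM in optimized replicates 1 to 3. The control libraries lay close together, while the optimized libraries spread more, with replicate 1 nearest the controls and no overlap between the groups. App was 1.44-fold higher, a log2 fold change of 0.53 ± 0.10 (SE, n = 3 against 3, edgeR adjusted p = 0.00227, 95% interval 0.31 to 0.75). An opposite-strand gene, Gm49227, shares 113 exonic bases with App and had a mean count 13.7% of that of App. It rose by 0.54 on the log2 scale (edgeR adjusted p = 0.00505), and since the strand setting of the counting is not stated in the sources used here, reads on the shared bases cannot be assigned to one of the 2 genes.

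The closest relatives of App were read next to it. Aplp2, a precursor family member that yields no amyloid-β, was at 767, 779 and 777 CPM in control and 844, 832 and 850 CPM in optimized libraries. Every optimized library was above every control library, but the log2 fold change of 0.12 did not pass (edgeR adjusted p = 0.327). Within a library the ratio of App counts to Aplp2 counts was 0.757 to 0.774 in control and 0.913 to 1.09 in optimized libraries, so App gained on Aplp2 in each optimized library. Among the 10 tested genes of the precursor family and of proteins that bind or resemble it, 3 were higher, 1 was lower and 6 did not pass, with a median log2 fold change of 0.13. That is 30% higher and 10% lower, against 14.7% and 15.2% of all genes tested. Apbb2, a cytoplasmic adaptor of the precursor, rose by 0.86 and was the highest. Apbb1ip, an adaptor in integrin signalling whose name links it to this family, fell by 0.80 on the log2 scale and was the lowest.

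Psen2 encodes presenilin 2, a catalytic subunit of γ-secretase (ENSMUSG00000010609, chr1:180054569-180091003, minus strand). Its level was 94.4, 77.7 and 96.7 CPM in control and 81.8, 88.1 and 85.3 CPM in optimized libraries. Control replicate 2 was the lowest of the 6 libraries and the groups overlapped. The log2 fold change was -0.07 ± 0.10 (SE, n = 3 against 3, edgeR adjusted p = 0.635), and its 95% interval, -0.30 to 0.15, is a fold of 0.813 to 1.11.

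Of the 6 other subunit genes of γ-secretase, 1 was higher, 2 were lower and 3 did not pass. The shares, 16.7% higher and 33.3% lower, stand against 14.7% and 15.2% of all genes tested. Ncstn, which encodes nicastrin, the subunit that screens substrates, rose from 206 to 229 CPM to 336 to 350 CPM (log2 fold change 0.66, edgeR adjusted p = 0.000188). Aph1b and Aph1c, scaffold subunits encoded by near-identical neighbours between which reads may be split, fell by 0.48 and 0.51 on the log2 scale. Aph1a, the remaining scaffold gene, and Psenen had log2 fold changes of -0.13 and 0.07 and did not pass.

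Of the 4 genes for proteases that make the first cut, 1 was higher (25%, against 14.7% of all genes tested) and 3 did not pass. Adam10, the main α-secretase, was at 138 to 153 CPM in control and 260 to 292 CPM in optimized libraries, with no overlap, and rose by 0.94 on the log2 scale (edgeR adjusted p = 2.53e-05). Adam17, another α-secretase, had a log2 fold change of -0.17, Bace1, the β-secretase, 0.02 and Bace2 0.73 at 0.41 to 1.16 CPM, and none of these 3 passed. For Bace1 the 95% interval ran from -0.32 to 0.37, so a modest change in either direction was not detectable here.

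Sorl1 encodes a sorting receptor that binds the precursor and carries it from endosomes back towards the Golgi, away from the secretases that release amyloid-β (ENSMUSG00000049313, chr9:41876012-42035656, minus strand). Its level was 88.6, 77.0 and 72.0 CPM in control and 55.6, 42.0 and 49.4 CPM in optimized libraries. All optimized libraries were below all control libraries, with optimized replicate 1 again nearest the controls. Sorl1 was at 0.619 of its control level, a log2 fold change of -0.69 ± 0.12 (SE, n = 3 against 3, edgeR adjusted p = 0.00173, 95% interval -0.96 to -0.42), and 9.42% of genes tested had a lower value. Gm16214, an opposite-strand gene that shares 537 exonic bases with Sorl1 and had 9.51% of its mean count, fell too, by 0.82 on the log2 scale (edgeR adjusted p = 0.00385).

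Sort1, which encodes sortilin, a sorting receptor of the same family that binds progranulin, moved the other way. It was at 93.0 to 102 CPM in control and 177 to 198 CPM in optimized libraries, a log2 fold change of 0.93 (edgeR adjusted p = 2.33e-05). The count ratio of Sorl1 to Sort1 was therefore 0.774 to 0.869 in control and 0.232 to 0.281 in optimized libraries, a ratio 0.323 times as high. Of the 8 tested genes of the sortilin family and the retromer, the coat that works with these receptors, 1 was higher (Sort1), 1 was lower (Vps26a, by 0.34 on the log2 scale) and 6 did not pass, with a median of 0.02. Each direction was 12.5% of the list, against 14.7% higher and 15.2% lower among all genes tested. Vps35, the core retromer subunit, had a log2 fold change of -0.12 and did not pass. Sorcs1 and Sorcs3 were under the filter.

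Bin1 encodes amphiphysin 2, a BAR-domain protein that bends membranes in endocytosis and recycling (ENSMUSG00000024381, chr18:32509621-32571547, plus strand). Its level was 159, 155 and 162 CPM in control and 244, 333 and 294 CPM in optimized libraries. The control libraries were nearly level, the optimized libraries were all higher, and replicate 1 was the lowest of these. Bin1 was 1.83-fold higher, a log2 fold change of 0.87 ± 0.11 (SE, n = 3 against 3, edgeR adjusted p = 0.000271, 95% interval 0.61 to 1.12). Oligodendrocytes express Bin1 strongly, and their marker sum, given above, was also higher in optimized libraries. Bin2, a myeloid relative of Bin1, rose to a like extent, from 115 to 118 CPM to 176 to 212 CPM (log2 fold change 0.76, edgeR adjusted p = 0.000148). The count ratio of Bin1 to Bin2 was 1.34 to 1.38 in control and 1.38 to 1.57 in optimized libraries and overlapped, a difference of 0.11 on the log2 scale.

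Picalm encodes a clathrin assembly protein that brings cargo into coated pits (ENSMUSG00000039361, chr7:89779270-89862673, plus strand), and its promoter is the one with the pair of CLEAR-type E-boxes. Its level was 245, 261 and 224 CPM in control and 367, 345 and 366 CPM in optimized libraries. The groups did not overlap, and here optimized replicate 2, not 1, was nearest the controls. Picalm was 1.48-fold higher, a log2 fold change of 0.56 ± 0.09 (SE, n = 3 against 3, edgeR adjusted p = 0.000875, 95% interval 0.36 to 0.76). Its neuronal relative Snap91 was at 0.44 to 1.89 CPM in all libraries and did not pass, with Picalm counts 194 to 560 times those of Snap91.

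Cd2ap encodes a scaffold that ties membrane receptors to the actin cytoskeleton (ENSMUSG00000061665, chr17:43103839-43187613, minus strand). Its level was 70.8, 71.8 and 63.7 CPM in control and 78.8, 57.4 and 63.7 CPM in optimized libraries. Optimized replicate 1 was the highest and optimized replicate 2 the lowest of all 6, so the groups overlapped fully. The log2 fold change was -0.05 ± 0.12 (SE, n = 3 against 3, edgeR adjusted p = 0.821), and the 95% interval of the fold ran from 0.804 to 1.17. Sh3kbp1, the closest relative of Cd2ap, rose from 102 to 110 CPM to 137 to 141 CPM (log2 fold change 0.38, edgeR adjusted p = 0.0042). The count ratio of Cd2ap to Sh3kbp1 was 0.579 to 0.705 in control and 0.419 to 0.559 in optimized libraries, without overlap.

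The genes of clathrin-mediated endocytosis around Bin1, Picalm and Cd2ap moved in both directions. Of 17 tested, 3 were higher (Bin2, Rin3 and Sh3kbp1), 5 were lower and 9 did not pass, and the median log2 fold change was -0.20. The shares were 17.65% higher and 29.4% lower, against 14.7% and 15.2% of all genes tested. The lower ones included 2 subunits of the AP-2 adaptor, with Ap2m1 the lowest at a log2 fold change of -0.80, from 391 to 460 CPM in control to 218 to 263 CPM in optimized libraries. Both clathrin light chain genes were lower as well, Clta by 0.52 and Cltb by 0.45 on the log2 scale. Cltc, the clathrin heavy chain, had a log2 fold change of -0.20 and did not pass.

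Abi3 encodes an Abl interactor family protein that can take the place of Abi1 in the WAVE complex, which starts actin branching (ENSMUSG00000018381, chr11:95720900-95733302, minus strand). Its level was 50.5, 52.4 and 54.7 CPM in control and 148, 160 and 157 CPM in optimized libraries. Both groups were tight and far apart. Abi3 was 2.95-fold higher, a log2 fold change of 1.56 ± 0.08 (SE, n = 3 against 3, edgeR adjusted p = 6.58e-07, 95% interval 1.38 to 1.74), and 3.04% of genes tested had a higher value.

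Abi1, the widely expressed relative, moved the other way. It was at 178 to 188 CPM in control and 138 to 141 CPM in optimized libraries, and fell by 0.40 on the log2 scale (edgeR adjusted p = 0.00288). The count ratio of Abi3 to Abi1 was 0.279 to 0.294 in control and 1.07 to 1.16 in optimized libraries, a 3.89-fold difference. Per length, on the scale of the deposited FPKM values, Abi3 stayed below Abi1 in every library, at a ratio of 0.117 to 0.123 in control and 0.446 to 0.484 in optimized libraries. This ratio rests on the lengths behind the FPKM values. For Abi3 the implied length was 9091 bases against 4060 for its canonical transcript in GENCODE. For Abi1 it was 3801 against 3408, so canonical lengths would place Abi3 closer to Abi1. The 10 tested genes of the Abi and WAVE group comprised 1 higher (Cyfip2, log2 fold change 0.46), 1 lower (Abi1) and 8 that did not pass, at a median of 0.04. Each direction was 10% of the group, against 14.7% higher and 15.2% lower among all genes tested. Nckap1l, the WAVE subunit of blood cells, was at 737 to 826 CPM in control and 725 to 883 CPM in optimized libraries, a log2 fold change of 0.02.

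The position of Abi3 limits how its counts can be read. Its annotated exons share bases on the opposite strand with Gngt2 (871 bases, 33.5% of the mean count of Abi3), Zfp652 (2933 bases, 18.6%) and Phospho1 (1715 bases, 15.8%). Phospho1 rose by 1.27 on the log2 scale (edgeR adjusted p = 1.81e-05) and Gngt2 by 0.85 (edgeR adjusted p = 0.00307), while Zfp652, at 0.60, did not pass. Without the strand setting, reads from the shared bases cannot be assigned to Abi3 or its neighbours.

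Grn encodes progranulin, a secreted glycoprotein that is also delivered to lysosomes and cut into granulins there (ENSMUSG00000034708, chr11:102321141-102327874, plus strand), and partial loss of it in people causes frontotemporal dementia. Its level was 2838, 2862 and 3061 CPM in control and 4427, 5787 and 5393 CPM in optimized libraries. The groups did not overlap and optimized replicate 1 was the lowest of its group. Grn was 1.78-fold higher, a log2 fold change of 0.83 ± 0.13 (SE, n = 3 against 3, edgeR adjusted p = 0.000663, 95% interval 0.55 to 1.11). Grn alone took 0.303 to 0.307% of all counts in control and 0.453 to 0.519% in optimized libraries.

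Psap, which encodes prosaposin, a lysosomal protein that travels with progranulin, did not follow it. It was at 8252 to 9907 CPM in control and 7498 to 9477 CPM in optimized libraries, a log2 fold change of -0.01 (95% interval -0.32 to 0.30). The count ratio of Grn to Psap was 0.309 to 0.347 in control and 0.581 to 0.611 in optimized libraries. Of the 6 genes that handle progranulin, 3 were higher, none was lower and 3 did not pass, at a median log2 fold change of 0.66. That made 50% of the list higher, against 14.7% of all genes tested. The higher ones were the lysosomal proteases Ctsd (1.63) and Ctsl (1.35), and Slpi (1.11), an inhibitor that shields progranulin from cleavage but was read at only 0.66 to 1.75 CPM. Ctsb and Tmem106b, at 0.06 and 0.22, did not pass.

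Set beside one another, the ratios of each gene to its relative separated the groups in 5 of the 7 pairs reported here. For scale, every optimized library lay above every control library for 21.4% of single genes tested, and below for 22.5%. The share among other pairs of genes was not computed. The ratio was higher in every optimized library for Abi3 to Abi1, Grn to Psap and App to Aplp2, and lower in every one for Sorl1 to Sort1 and Cd2ap to Sh3kbp1. A ratio within a library does not depend on the scaling between libraries. With 3 against 3 libraries the exact two-sided permutation test cannot go below p = 0.1, which these 5 pairs reached (0.16 after Benjamini-Hochberg adjustment over the 8 ratios computed), so no ratio could pass a threshold of 0.05.

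**Figure D3:**
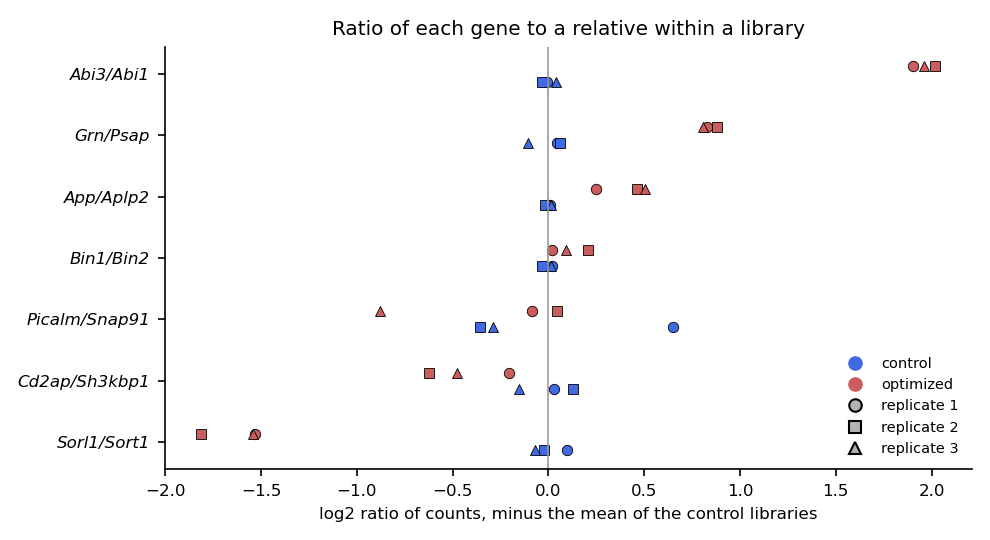
Log2 ratio of the counts of each gene to those of a relative in the same library, minus the mean of the 3 control libraries (horizontal axis), with control libraries in blue, optimized libraries in red and 1 symbol shape per replicate number. The optimized libraries lie about 1.96 above the controls for Abi3 to Abi1 and 1.63 below them for Sorl1 to Sort1, and overlap them for Bin1 to Bin2 and Picalm to Snap91, whose relative had as few as 10 counts.

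Levels can be compared between genes only per length. On the scale of the deposited FPKM values, which divide by gene length and depth, Grn stood far above the others at 1380 ± 10.7 FPKM in control (mean ± SD, n = 3), followed by Bin1 (51.2 ± 1.11), Picalm (44.7 ± 4.91), Psen2 (40.5 ± 3.98), App (28.9 ± 0.763), Cd2ap (11.7 ± 1.16), Sorl1 (7.17 ± 0.964) and Abi3 (6.03 ± 0.121). The libraries of Picalm and Psen2 overlapped, and those of all other neighbours in this order did not. Under optimized conditions the order was Grn, Bin1, Picalm, App, Psen2, Abi3, Cd2ap and Sorl1, where App (37.9 ± 3.21) and Psen2 (34.9 ± 0.544) overlapped. Abi3 moved from the last place to the sixth (16.2 ± 0.405), and Sorl1 became the lowest (4.04 ± 0.721).

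This order rests on the gene lengths behind the FPKM values. The length implied for App was 21460 bases, whereas its canonical transcript in GENCODE has 8582, and for Abi3 it was 9091 against 4060. Bin1 and Picalm differed the other way, at 3241 against 5525 and 5690 against 8323 bases. With CPM per kilobase of the canonical transcript, a scale added after the data had been seen, App stood second in both conditions, at 69.3 ± 0.726 in control and 100.1 ± 9.33 in optimized libraries (mean ± SD, n = 3), and Abi3 sixth in both. Grn was first and Sorl1 last on this scale in both conditions. Bin1 stood at rank 5 in control, where it overlapped Picalm, and at rank 3 in optimized libraries. In control libraries Abi3 overlapped Cd2ap, the next in order.

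The genes also differed in how far replicates spread. The coefficient of variation in control libraries ran from 1.05% (App) to 11.6% (Psen2), and in optimized libraries from 3.39% (Picalm) to 16.5% (Cd2ap). Optimized replicate 1 was the library of its group nearest the controls for App, Bin1, Grn, Abi3 and Sorl1, but not for Picalm, Psen2 or Cd2ap. The 10 most abundant genes took 19.0% of the counts in that library, against 21.4 and 24.1% in the other optimized libraries. Without it, the log2 fold change of App was 0.60, and that of Bin1 0.98.

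Beyond the 8 genes, 100 related genes from 9 lists were read in the same way, of which 94 were tested. Of these, 23 were higher, 17 were lower and 54 did not pass, and the median log2 fold change was 0.06. Against the background of 14.7% higher and 15.2% lower among all genes, the shares here were 24.5% and 18.1%. The lists hold no member of the 8 and, like them, were chosen with earlier results of these data known.

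**Figure D4:**
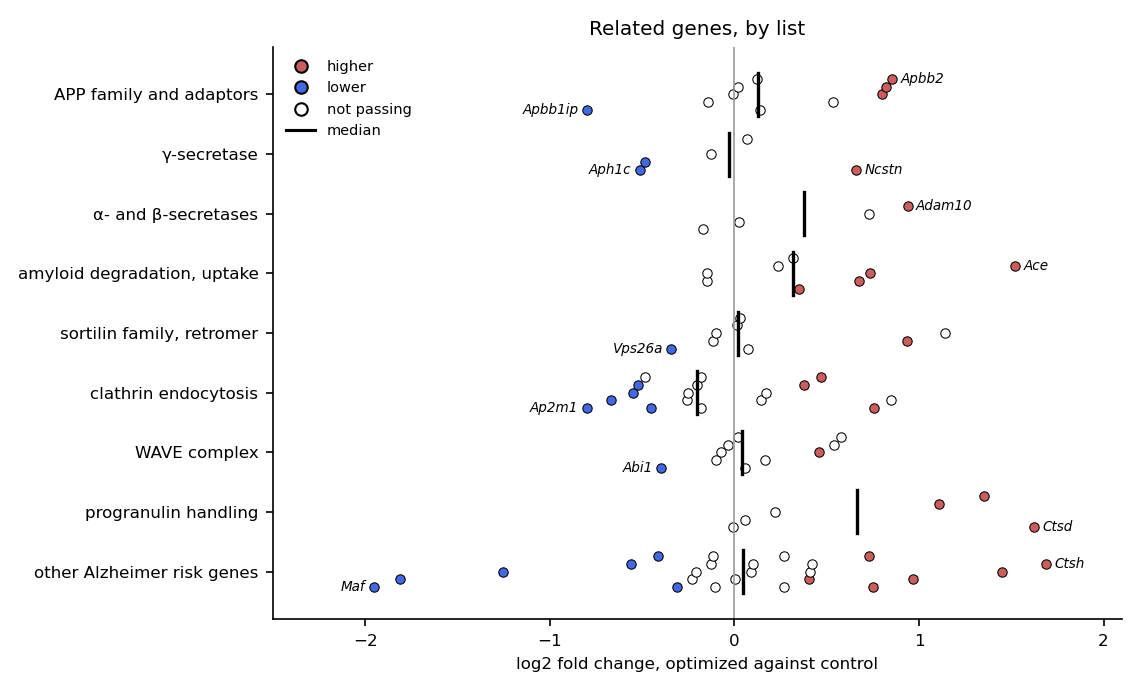
Log2 fold change of 92 of the 94 tested related genes (horizontal axis), by list (rows), with red for higher, blue for lower and white for not passing at an adjusted p of 0.05 in edgeR, and a black bar at the median of each whole list. Medians run from -0.20 for clathrin endocytosis to 0.66 for progranulin handling, and Ctsh lies highest at 1.69 and Maf lowest at -1.95 among the genes drawn.

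Of 9 tested genes that degrade or take up amyloid, 4 were higher, 1 was lower and 4 did not pass, at a median of 0.32. The shares were 44.4% higher and 11.1% lower, against 14.7% and 15.2% of all genes tested. Ace, a peptidase that can cut amyloid-β, had the highest log2 fold change at 1.52 but was read at 0.69 to 2.79 CPM. Apoe, the lipid carrier behind the strongest common risk locus, was at 28358 to 35664 CPM in control and 38574 to 66223 CPM in optimized libraries, a log2 fold change of 0.73 (edgeR adjusted p = 0.0217). Mme and Ece2 were under the filter.

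Among 24 other tested Alzheimer risk genes, 6 were higher, 6 were lower and 12 did not pass, at a median of 0.05. Each direction was 25% of these genes, against 14.7% higher and 15.2% lower among all genes tested. The higher ones were Ctsh, a lysosomal protease (1.69), Cd33, an inhibitory sialic acid receptor (1.45), Inpp5d, a lipid phosphatase that restrains immune receptors (0.97), Plcg2, a phospholipase below TREM2 (0.75), Trem2 itself, a lipid-sensing receptor (0.73), and Usp6nl (0.40). The lower ones were Maf, a macrophage transcription factor (-1.95), Cass4 (-1.81, at 2.01 CPM or less), Adamts1, a secreted protease (-1.26), Spi1, which encodes the myeloid factor PU.1 (-0.56), Sppl2a (-0.41) and Blnk (-0.31). Trem2 was at 575, 613 and 681 CPM in control and 728, 1288 and 1079 CPM in optimized libraries, without overlap and with optimized replicate 1 nearest the controls, as for App and Grn.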

How the data were processed

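Bulk RNA sequencing of mouse microglia was analysed in 3 control and 3 optimized libraries. The authors aligned reads from both fragment ends with HISAT2, on the genome build mm39 (GRCm39), and counted them with featureCounts. They deposited raw counts per gene, without normalization, and FPKM values for the same 41079 genes. Versions, annotation and strand setting are not given in the sources used here. The library totals, 20628148 to 27261839 counts, limit precision for genes of few counts.

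Conditions were taken from the labels. Counts were scaled with TMM factors, filtered with filterByExpr and compared with the quasi-likelihood test of edgeR 4.0.16 in R 4.3.3, without covariates, with Benjamini-Hochberg adjustment over 14618 genes. The procedure was tested on simulated data in which few genes were changed, equally up and down. That test therefore does not bear on the choice of scaling. CPM values are TMM-scaled, and SD is over 3 libraries. Ratios of counts were compared with an exact two-sided permutation test. Alternatives used DESeq2 1.42.0, limma 3.58.1 on FPKM, other scalings and filters, a replicate block, and each library left out. Exon overlaps and positions were taken from GENCODE M39, and promoters from RefSeq (GRCm38.p6).

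The 8 genes and all lists were chosen with earlier results of these data known. The text names the 8 genes, their relatives, the called gene with the highest and the lowest log2 fold change of each list, all members of lists under 8 genes, and markers. Rin3, Clta, Cltb, Cltc, Vps35, Sorcs1, Sorcs3, Nckap1l, Apoe, Mme, Ece2, the called risk genes other than Maf and Ctsh, and the genes overlapping App, Sorl1 and Abi3 fall outside this rule and were named after their values were seen. Results of 2 related genes are not reported here, though they count in the totals of their lists.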

Additional observations from a re-analysis of the deposited data

How the results depend on the processing

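All 8 genes kept their direction where they passed, and their side of the threshold, under 15 alternatives: other scalings and filters, DESeq2, limma on FPKM, a replicate block and each library left out. Over these the log2 fold change ran from 1.29 to 1.59 for Abi3, 0.71 to 0.98 for Bin1, 0.69 to 0.94 for Grn, 0.42 to 0.61 for Picalm, 0.38 to 0.60 for App (highest adjusted p 0.0204, edgeR, limma or DESeq2) and -0.82 to -0.60 for Sorl1. Cd2ap, which did not pass, ran from -0.19 to 0.04. Library size alone moved the median of all genes to -0.12 and that of the 8 genes to 0.42. Limma on log2(FPKM + 1) restricted to a mean FPKM of 1 or more gave 1176 higher genes against 2142, and a share of 28.4% of calls higher. Without that restriction, over the same 14618 genes as edgeR, limma gave 1472 higher genes and a share of 31.1%. With each library left out in turn, the related genes that were lower numbered 10 to 22 against 17, at 11 without control replicate 3 and 10 without optimized replicate 3. The same-numbered libraries had correlations of deviations of 0.27, -0.01 and 0.18, so the numbers were not read as pairs. The replicate block gave 2401 higher and 2523 lower genes and changed no call among the 8. Levels per length depended on the length used, as the report gives for the canonical transcripts.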
